A study of Mus musculus with 12 samples.

Results

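The vacuolar proton pump, or V-ATPase, was described here by 10 of its subunit genes, Atp6v0a1, Atp6v0b, Atp6v0c, Atp6v0d1, Atp6v0e2, Atp6v1a, Atp6v1b2, Atp6v1c1, Atp6v1d and Atp6v1h. They were selected by name from the 56748 genes of the deposited count table, and all 10 passed the filter on low counts that left 18334 genes for testing. The study sequenced poly-A RNA of whole mouse retinas in 4 groups of 3 libraries, each from a separate mouse. The groups were JR5558 at 4 weeks, C57BL/6J at 4 weeks, JR5558 at 8 weeks and C57BL/6J at 8 weeks. JR5558 is an inbred line known to form new vessels under the retina without any induction, and it is known to carry the rd8 allele of Crb1 and a mutant allele of Jak3. C57BL/6J is the age-matched wild-type strain. No treatment was given, so each strain comparison sets 1 inbred line against another and covers every locus at which they differ.

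The V-ATPase is a rotary pump. Its V1 sector, in the cytosol, breaks down ATP, and the rotation this drives makes the Vo sector in the membrane carry protons into the lumen. It acidifies lysosomes and endosomes, and in neurons it builds the proton gradient that loads neurotransmitter into synaptic vesicles, while the retinal pigment epithelium depends on acid lysosomes to digest shed outer segments.

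The libraries held 18029611 to 23739886 counts. The libraries of JR5558 at 4 weeks had 2, 5 and 0 counts of the X-inactivation RNA Xist and 1323 to 1846 counts of the Y-linked Ddx3y, whereas the other 9 libraries had 7772 to 22988 counts of Xist and 0 of Ddx3y. At 4 weeks strain and this sex-linked pattern therefore cannot be told apart, and at 8 weeks all 6 libraries shared the Xist pattern. In JR5558 age and this pattern cannot be told apart either. All 10 rod markers were detected, summing to 59400 to 66820 counts per 1000000 counts (CPM) in JR5558 and 61470 to 66550 CPM in C57BL/6J at 4 weeks. At 8 weeks they summed to 62850 to 64880 CPM in JR5558 and 70410 to 73560 CPM in C57BL/6J, and 2 of the 10 were called lower, Gnat1 (-0.34 ± 0.063 on the log2 scale, adjusted p = 0.00216) and Pde6b (-0.28 ± 0.065, adjusted p = 0.0141, edgeR). The pigment epithelium markers summed to 361.8 to 558.9 CPM in JR5558 and 108.3 to 259.4 CPM in C57BL/6J at 4 weeks, and to 450.0 to 635.8 CPM in JR5558 and 174.9 to 317.9 CPM in C57BL/6J at 8 weeks. The 12 microglia and macrophage markers summed to 83.7 to 115.3 CPM in JR5558 and 62.7 to 73.5 CPM in C57BL/6J over both ages. The 8 Müller glia markers summed to 4442 to 5197 CPM in JR5558 and 3712 to 4649 CPM in C57BL/6J at 4 weeks, and to 5447 to 5837 CPM in JR5558 and 4451 to 4807 CPM in C57BL/6J at 8 weeks. In whole retinas, fewer cells of a type and less RNA per cell cannot be told apart.

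Counts assigned to Atp6v0c, the proteolipid subunit of the membrane ring that binds the proton, fell in JR5558 at both ages, and none of the other 9 genes passed the threshold in any of the 5 comparisons. Over the same libraries, counts assigned to Atp6v0c-ps2, a processed pseudogene almost identical to its coding sequence, were 237-fold higher in JR5558 at 4 weeks and 160.2-fold higher at 8 weeks. The sum of the pair did not pass in any comparison. The annotated sequences are given before the values, because they show how little separates the pseudogene from the coding part of the gene. The annotated transcript of Atp6v0c has 1183 bases, and its bases outside the coding sequence lie beyond the annotated pseudogene and were not compared. In the GENCODE M21 annotation of GRCm38, Atp6v0c lies on the minus strand of chr17:24163866-24169702, with a coding sequence of 465 bases without the stop codon. The pseudogene has 465 bases on the plus strand of chromosome 6 and, as a processed copy, none of the introns of the gene. Compared base by base over these 465 bases, the pair matched at 464 and differed by 1 substitution, T111C, counted from 1 at the A of the start codon, with the base of Atp6v0c first. The first 150 coding bases of Atp6v0c and the corresponding stretch of the pseudogene at chr6:37806086-37806235 are shown with the base that differs in capitals.
Atp6v0c: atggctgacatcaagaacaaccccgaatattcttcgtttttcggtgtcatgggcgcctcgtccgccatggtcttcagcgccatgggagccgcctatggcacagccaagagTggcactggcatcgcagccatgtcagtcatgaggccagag
Atp6v0c-ps2: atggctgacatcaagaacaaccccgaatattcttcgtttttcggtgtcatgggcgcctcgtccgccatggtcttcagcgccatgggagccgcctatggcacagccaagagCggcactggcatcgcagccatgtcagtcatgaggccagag

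Downstream of the capital base, all 354 remaining coding bases were the same in gene and pseudogene. In these annotated sequences, a read that lies wholly within the coding sequence therefore fits both places unless it covers position 111. The sequences of JR5558 were not examined, nor were read pairs with 1 read outside the coding sequence. How the authors' counting treated reads that fit 2 places is not given in the sources used here. A further processed pseudogene, Atp6v0c-ps1, was aligned to the coding sequence with its stop codon and differed by 11 substitutions and 5 gap positions. It had 0 counts in all 12 libraries. A search of annotated pseudogenes for copies with at least 90% identity over 100 bases found 1 copy of Atp6v1a, which had 6 counts over all 12 libraries, and none for the remaining 8 genes.

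At 4 weeks Atp6v0c had 108, 112 and 134 CPM in JR5558 retinas, against 314, 293 and 260.1 CPM in C57BL/6J retinas. The 8-week values were 128, 132 and 139 CPM in JR5558 retinas, against 371, 350.4 and 344 CPM in C57BL/6J retinas. Every JR5558 library was below every C57BL/6J library at both ages. The log2 fold change of JR5558 against C57BL/6J was -1.29 ± 0.088 (SE) at 4 weeks and -1.42 ± 0.088 at 8 weeks, which is a ratio of 0.409 and 0.374, with adjusted p = 6.45e-09 and 1.95e-09 (edgeR's quasi-likelihood test with Benjamini-Hochberg adjustment over all tested genes, threshold 0.05). The difference of the strain effect between the ages was -0.13 ± 0.12 (adjusted p = 0.871, edgeR). Atp6v0c was the 1 member called at 4 weeks, where 6.16% of all tested genes were called and 2.9% were called lower, and the 1 member called at 8 weeks, where 5.18% were called and 2.63% were called lower.

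The counts of Atp6v0c-ps2 ran the other way. At 4 weeks the pseudogene had 4248, 3757 and 4996 counts in JR5558 libraries, against 17, 15 and 18 counts in C57BL/6J libraries. At 8 weeks it had 4580, 4913 and 5019 counts in JR5558 libraries, against 32, 23 and 27 counts in C57BL/6J libraries. The groups were far apart, with log2 fold changes of 7.89 ± 0.16 at 4 weeks and 7.32 ± 0.15 at 8 weeks (adjusted p = 1.47e-16 and 1.77e-16, edgeR). The pseudogene held 61.9% to 64.7% of the pair's counts in the 6 JR5558 libraries and 0.272% to 0.417% in the 6 C57BL/6J libraries.

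**Figure D1:**
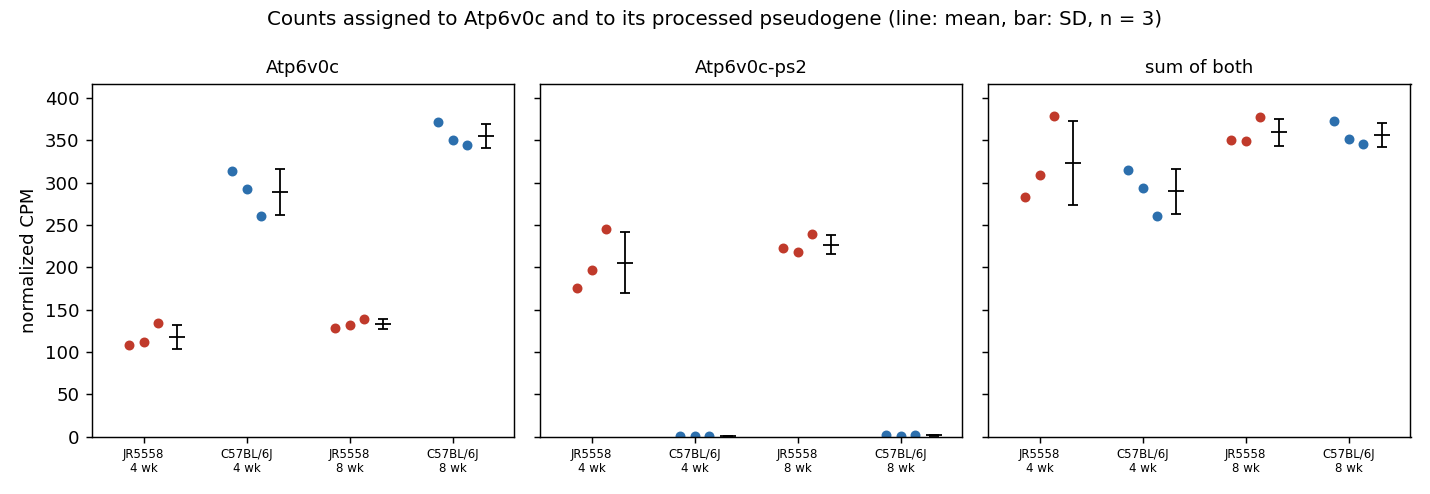
Normalized CPM of Atp6v0c, of Atp6v0c-ps2 and of their sum (vertical axes, from 0) in each library, by strain and age (horizontal axes); points are libraries, red for JR5558 and blue for C57BL/6J, and the black line and bar beside them are the mean and SD of 3. The strains are apart for gene and pseudogene, in opposite directions, and overlap for the sum.

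Added together, Atp6v0c and its pseudogene had 283, 309 and 379 CPM in JR5558 retinas at 4 weeks, against 315, 293 and 261 CPM in C57BL/6J retinas. At 8 weeks the sum was 351, 349.6 and 378 CPM in JR5558 retinas, against 373, 352 and 346 CPM in C57BL/6J retinas. The strains overlapped at both ages. Fitted as 1 gene, an alternative chosen after the data were seen, the pair had a log2 fold change of 0.16 ± 0.094 at 4 weeks (adjusted p = 0.384) and 0.01 ± 0.094 at 8 weeks (adjusted p = 0.975, edgeR). The bases that JR5558 carries in gene and pseudogene, at coding position 111 or elsewhere, were not analysed here. Whether the counts of the pseudogene came from its own RNA or from RNA of Atp6v0c was not tested. The value of Atp6v0c alone is therefore uncertain as a measure of its RNA in JR5558.

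The genes near Atp6v0c and near its pseudogene were counted as well. Within 1000 kb on each side in the deposited table, 13 of 70 tested genes were called at 4 weeks (3 higher and 10 lower in JR5558) and 14 of 70 at 8 weeks (5 higher and 9 lower). Around the pseudogene, 1 of 20 tested genes was called at each age, lower in JR5558. Of all tested genes, 6.16% were called at 4 weeks and 5.18% at 8 weeks. Among the neighbours of Atp6v0c was Tbc1d24, a TLDc-domain protein that can bind the pump, whose gene lies 5728 bases from Atp6v0c in the deposited table. It averaged 204 ± 15.2 CPM in JR5558 and 263 ± 18.5 CPM in C57BL/6J at 4 weeks (SD, n = 3 each). The 8-week means were 161 ± 8.16 CPM in JR5558 and 236 ± 11.2 CPM in C57BL/6J. Its log2 fold change was -0.36 ± 0.077 at 4 weeks (adjusted p = 0.00619) and -0.55 ± 0.078 at 8 weeks (adjusted p = 0.00014, edgeR). The part that this stretch of the chromosome had in the values of Atp6v0c was not tested.

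The remaining Vo genes encode the membrane sector around the proteolipid ring. Atp6v0a1, the long a subunit that forms the proton path against the ring and is the form known from synaptic vesicles, had 413, 415 and 437 CPM in JR5558 at 4 weeks, against 365, 359 and 392 CPM in C57BL/6J. Its 8-week values were 393, 376 and 356 CPM in JR5558, against 389, 396 and 392 CPM in C57BL/6J. The JR5558 libraries were all above the C57BL/6J libraries at 4 weeks and overlapped them at 8 weeks. The log2 fold change at 4 weeks, 0.18 ± 0.065, did not pass (adjusted p = 0.117, edgeR), and that at 8 weeks was -0.07 ± 0.065 (adjusted p = 0.672, edgeR). Without replicate 3 of C57BL/6J at 4 weeks, the first came to 0.22 and passed (adjusted p = 0.0365). Over all 18 other settings tried its adjusted p ran from 0.0365 to 0.364.

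Atp6v0e2, the small e subunit expressed in brain, had the highest level per length of the 10 genes in the authors' FPKM, while in CPM Atp6v1b2 was higher in every group. At 4 weeks Atp6v0e2 had 432, 466 and 489.6 CPM in JR5558, against 429, 414 and 391 CPM in C57BL/6J, so the groups did not overlap and JR5558 was higher. At 8 weeks it had 446, 419.6 and 453 CPM in JR5558, against 454, 486 and 479 CPM in C57BL/6J, so again the groups did not overlap, but JR5558 was lower. Neither difference passed, with log2 fold changes of 0.17 ± 0.068 (adjusted p = 0.175) and -0.11 ± 0.068 (adjusted p = 0.472, edgeR). The difference between these strain effects was -0.27 ± 0.096, with a 95% interval of -0.48 to -0.07 and adjusted p = 0.51 (edgeR). Of all tested genes, 0.845% had groups apart at both ages in opposite directions.

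Atp6v0b, the c'' proteolipid of the same ring, had 204, 217 and 245 CPM in JR5558 at 4 weeks, against 258, 267 and 186 CPM in C57BL/6J. In the older mice the values were 258, 257 and 297 CPM in JR5558, against 266, 274 and 276 CPM in C57BL/6J. The strains overlapped at both ages, and replicate 3 of C57BL/6J at 4 weeks had the lowest value of the 12. In that library the lens markers summed to 120.5 CPM, against 9.36 and 6.91 CPM in replicates 1 and 2 of its group and 0.589 to 54.1 CPM in the other 9 libraries, and their part in the values of Atp6v0a1 and Atp6v0b was not tested. Atp6v0d1, the d subunit that links the ring to the stalk, varied little, averaging 184 ± 0.662 CPM in JR5558 and 181 ± 19.3 CPM in C57BL/6J at 4 weeks. The 8-week means were 187 ± 3.74 CPM in JR5558 and 192 ± 6.77 CPM in C57BL/6J. Its log2 fold changes were 0.03 ± 0.075 and -0.04 ± 0.075 (adjusted p = 0.897 and 0.863, edgeR).

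The 5 V1 genes showed no strain difference past the threshold. Atp6v1a and Atp6v1b2 encode the A and B subunits that alternate in the ATP-hydrolysing head. Atp6v1a averaged 444.5 ± 35.2 CPM in JR5558 and 445 ± 44.4 CPM in C57BL/6J at 4 weeks, and 421 ± 6.88 CPM in JR5558 and 403 ± 20.7 CPM in C57BL/6J at 8 weeks. Atp6v1b2 averaged 597 ± 25.3 CPM in JR5558 and 603 ± 45.1 CPM in C57BL/6J at 4 weeks, and 581 ± 8.43 CPM in JR5558 and 623 ± 31.4 CPM in C57BL/6J at 8 weeks. For each of these genes the libraries of the strains overlapped at both ages. Their log2 fold changes lay between -0.10 and 0.06.

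Atp6v1c1 and Atp6v1h encode the C and H subunits, which connect the head to the membrane sector and take part in the regulated assembly and silencing of the pump. Atp6v1c1 averaged 152 ± 5.49 CPM in JR5558 and 163 ± 19.3 CPM in C57BL/6J at 4 weeks, and 157 ± 7.33 CPM in JR5558 and 161 ± 1.70 CPM in C57BL/6J at 8 weeks. Atp6v1h averaged 112 ± 3.65 CPM in JR5558 and 116 ± 11.1 CPM in C57BL/6J at 4 weeks, and 118 ± 6.96 CPM in JR5558 and 125 ± 2.61 CPM in C57BL/6J at 8 weeks. Atp6v1d, the D subunit of the central rotor, averaged 103 ± 2.46 CPM in JR5558 and 102.5 ± 6.22 CPM in C57BL/6J at 4 weeks, and 112 ± 5.71 CPM in JR5558 and 108 ± 8.56 CPM in C57BL/6J at 8 weeks. Again the strains overlapped for each gene at each age. Atp6v1h overlaps Rgs20, which lies on the opposite strand and had 10158 counts over all libraries; the labels leave open whether reads were assigned by strand, so reads of this pair may have been mixed.

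**Figure D2:**
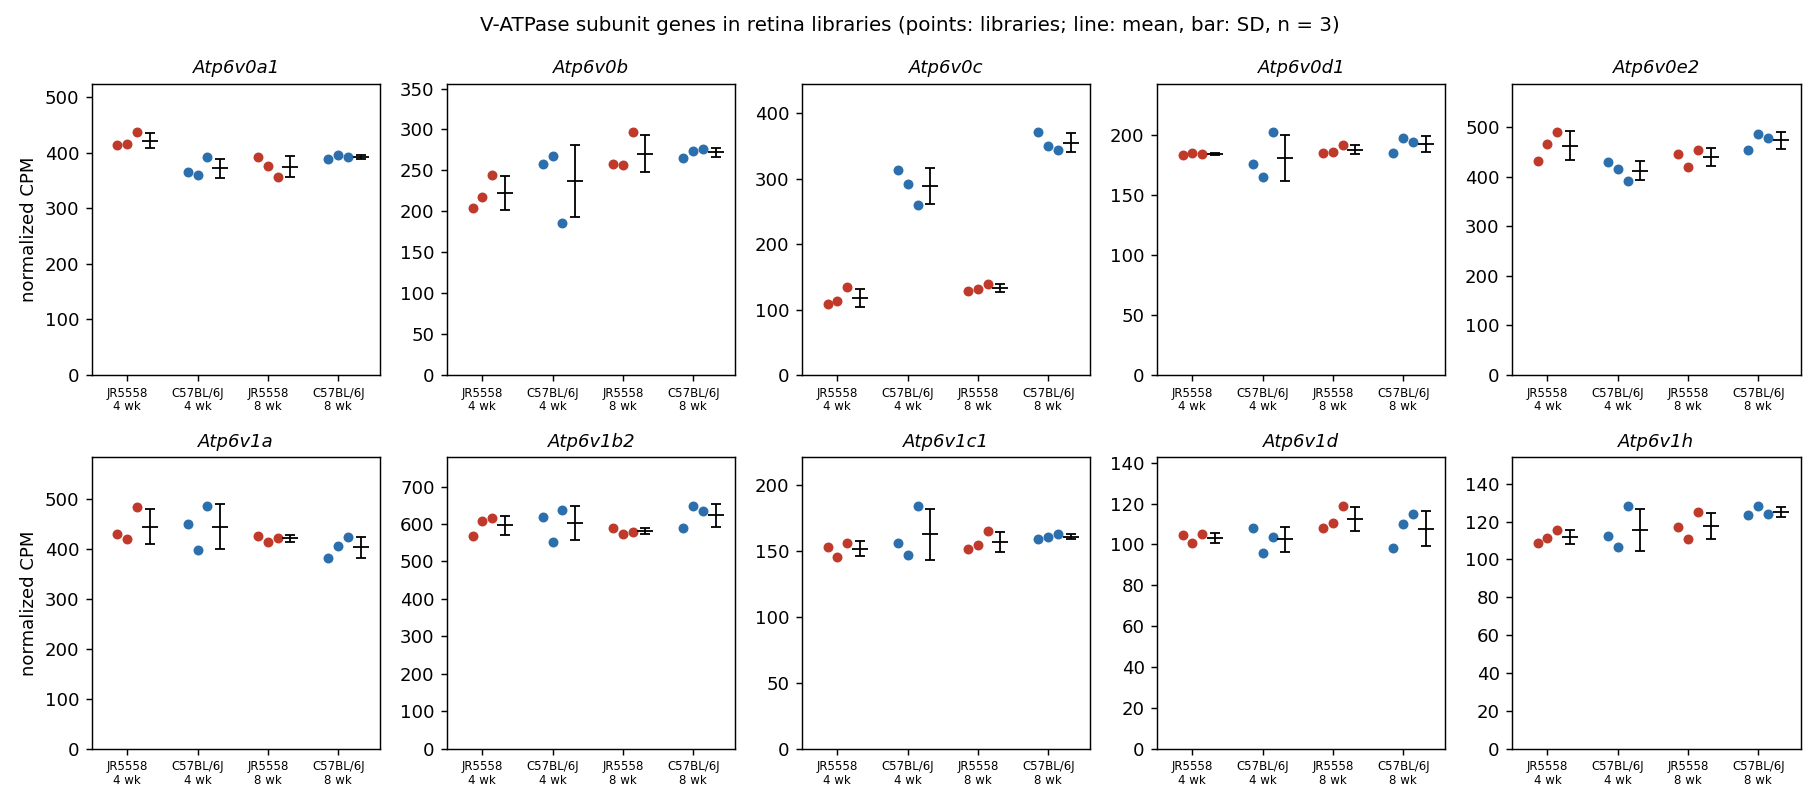
Normalized CPM (vertical axes, from 0, each panel with its own scale) of the 10 genes in every library, by strain and age (horizontal axes); points are libraries, red for JR5558 and blue for C57BL/6J, and the black line and bar are the mean and SD of 3. Atp6v0c is the panel in which the strains are apart at both ages in the same direction.

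The strain comparison at 4 weeks includes the Xist and Ddx3y pattern. For the 9 genes other than Atp6v0c, each interval covers 1 gene alone and not the 9 jointly. At 4 weeks their log2 fold changes ran from -0.10 to 0.18, and the 95% confidence intervals reached from -0.32 at the lowest to 0.32 at the highest, or 0.799-fold to 1.25-fold. At 8 weeks they ran from -0.11 to 0.06, with intervals reaching from -0.26 to 0.23, or 0.837-fold to 1.17-fold. At unadjusted p under 0.05, 2 of the 9 stood at 4 weeks (Atp6v0a1 and Atp6v0e2, named after their values were seen) and 0 at 8 weeks. That level was met by 3494 of 18334 tested genes at 4 weeks and by 3187 at 8 weeks. The median log2 fold change of the 10 members was -0.01 at 4 weeks and -0.05 at 8 weeks, and that of all tested genes was 0.00 at both ages. Groups did not overlap for 3 of 10 members at 4 weeks and 2 of 10 at 8 weeks, against 19.6% and 30.2% of all tested genes.

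**Figure D3:**
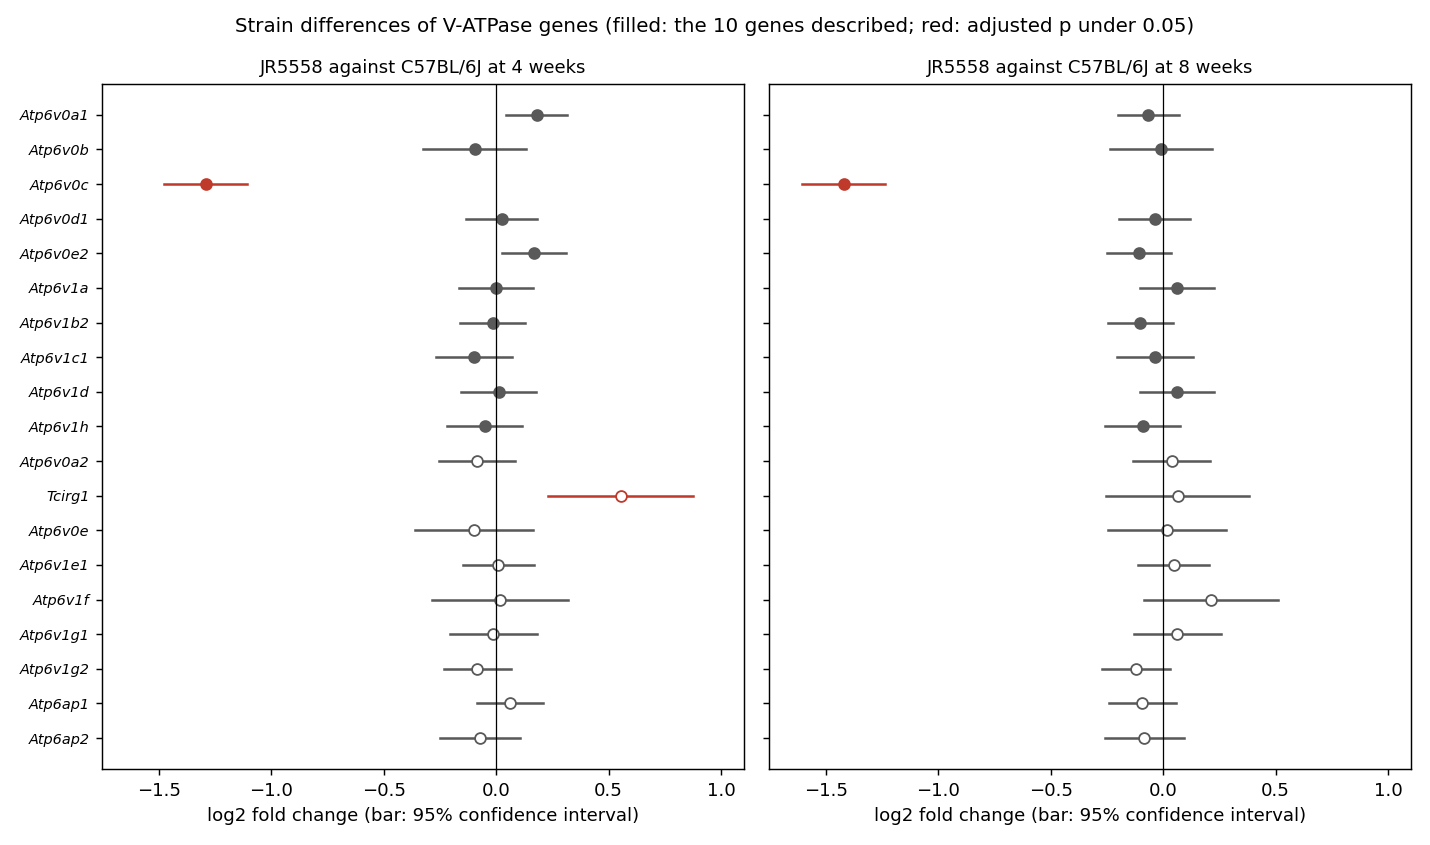
Log2 fold change of JR5558 against C57BL/6J (horizontal axes) at 4 weeks (left) and 8 weeks (right) for the 10 genes described (filled points) and 9 other tested genes of the pump (open points); bars are 95% confidence intervals, and red marks an adjusted p under 0.05. Atp6v0c stands at -1.29 and -1.42, and the other filled points lie between -0.11 and 0.18. The open points are 9 of 22 other tested genes of the pump, and Atp6v0a4, at 1.66 and 1.6, is not among them.

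Between 8 and 4 weeks no member passed in either strain. The background was 1.51% of all tested genes called in JR5558 and 0.431% in C57BL/6J, and the strain effect differed between ages for 0.0927%, again with 0 of 10 members called. At unadjusted p under 0.05 there were 3093 of 18334 tested genes in JR5558, 2642 in C57BL/6J and 1318 for the difference of the strain effect. The members among them numbered 2 of 10 in each case. In JR5558 these were Atp6v0b, with a log2 fold change of 0.29 ± 0.11 (adjusted p = 0.185), and Atp6v0a1, with -0.17 ± 0.065 (adjusted p = 0.188, edgeR). All 3 libraries at 8 weeks were higher than those at 4 weeks for Atp6v0b and lower for Atp6v0a1, and age here cannot be told apart from the Xist and Ddx3y pattern.

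In C57BL/6J the genes with the smallest p-values were Atp6v0c, with 0.30 ± 0.086 for 8 against 4 weeks (adjusted p = 0.135), and Atp6v0e2, with 0.20 ± 0.068 (adjusted p = 0.188, edgeR). Both were higher in all 3 libraries at 8 weeks. DESeq2 called Atp6v0c in this comparison (adjusted p = 0.0418), and so did the fit with no filter on low counts (0.0426), within a range of 0.0418 to 0.324 over all 18 other settings. Atp6v0b in JR5558 passed with no filter on low counts (adjusted p = 0.0182) and without replicate 3 of C57BL/6J at 4 weeks (0.0244), within a range of 0.0182 to 0.562. Groups of the 2 ages did not overlap for 4 of 10 members in JR5558 and 2 of 10 in C57BL/6J, against 24.3% and 19% of all tested genes. The median of the 10 members was 0.04 in JR5558 and 0.08 in C57BL/6J on the log2 scale, and that of all tested genes was -0.01 and 0.00.

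Levels per length were compared with the authors' FPKM, which divides counts by gene length. Over the 12 libraries Atp6v0e2 averaged 186 ± 12.7 FPKM (SD), and none of its libraries overlapped the next gene. Atp6v0b (121 ± 15.5 FPKM), Atp6v1b2 (113 ± 5.97 FPKM) and Atp6v0d1 (103 ± 5.79 FPKM) followed, and neighbours in this order overlapped. Atp6v1a (70.4 ± 5.32 FPKM), Atp6v0c (65.7 ± 31.3 FPKM) and Atp6v0a1 (59.1 ± 3.63 FPKM) came next, again with overlap. The lowest were Atp6v1c1 (28.1 ± 1.88 FPKM), Atp6v1d (23.0 ± 1.47 FPKM) and Atp6v1h (12.0 ± 0.826 FPKM), which were apart from each other. The highest library of Atp6v1c1 (33.0 FPKM, C57BL/6J at 4 weeks) overlapped the lowest JR5558 libraries of Atp6v0c (down to 31.6 FPKM), and was below every other gene above it. The wide spread of Atp6v0c follows the strains, with 34.6 and 39.0 FPKM in JR5558 and 84.9 and 104 FPKM in C57BL/6J at 4 and 8 weeks. Its rank among the 10 was 7 in JR5558 and 5 in C57BL/6J. The subunits are not present in equal copy number in the pump, and the FPKM length is that of all annotated exons, so these values describe RNA and not the makeup of the complex.

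Several subunits have more than 1 gene, and in the a, d, e, B and C families the described member held most of the FPKM in every library. Atp6v0a1 made up 84.5% to 87.4% of the FPKM of the a subunits, and Atp6v0a2, the form known from the Golgi and endosomes, 9.58% to 12.8%. Tcirg1, the a subunit of osteoclasts and of lysosomes in macrophages, made up 2.01% to 3.46%, and Atp6v0a4, known from kidney and inner ear, at most 0.402%. Atp6v0e2 made up 97.4% to 98.3% of the e subunits, where its more widely expressed partner Atp6v0e averaged 4.27 FPKM. Atp6v0d1, Atp6v1b2 and Atp6v1c1 each made up over 99% of their families. Their partners Atp6v0d2, known from osteoclasts and kidney, Atp6v1b1, known from acid-secreting kidney cells, and Atp6v1c2 had 3, 72 and 24 counts over all 12 libraries.

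**Figure D4:**
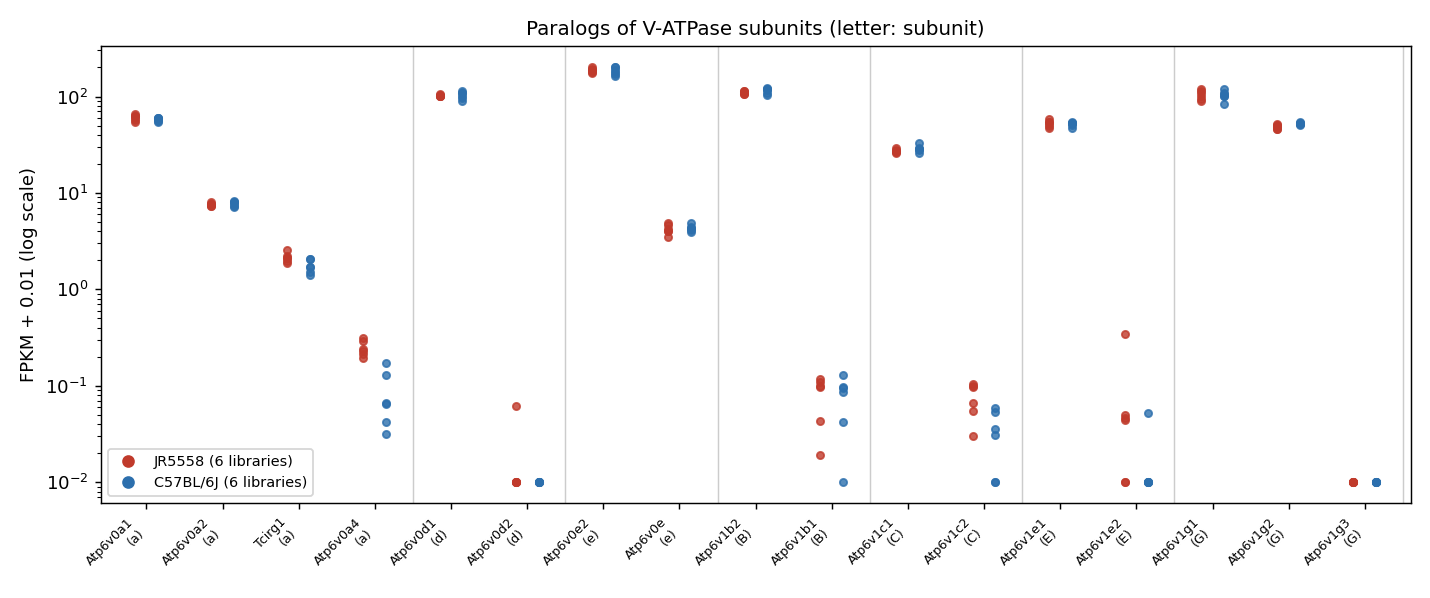
FPKM of the paralogs of each subunit family in every library, plotted as FPKM + 0.01 on a log axis, with genes along the horizontal axis and the subunit letter in brackets; red points are the 6 JR5558 libraries and blue points the 6 C57BL/6J libraries. In the a, d, e, B and C families a described member (Atp6v0a1, Atp6v0d1, Atp6v0e2, Atp6v1b2, Atp6v1c1) is the highest in every library.

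Of the other pump genes, 22 of 28 subunits, accessory proteins, assembly factors and regulators were tested. At 4 weeks 1 was called higher (Tcirg1) and 1 lower (Tbc1d24), at 8 weeks 2 were called lower (Tbc1d24 and Meak7), and the remaining genes did not pass. These 2 of 22 at each age stand beside 6.16% of all tested genes called at 4 weeks and 5.18% at 8 weeks. Atp6v0a4, with 196 counts over all 12 libraries, was higher in every JR5558 library at both ages without passing. Its log2 fold changes were 1.66 ± 0.57 at 4 weeks and 1.6 ± 0.59 at 8 weeks (adjusted p = 0.101 and 0.15, edgeR). The gene lies within the 1000 kb counted around Atp6v0c-ps2. Tcirg1 had 10.2, 11.8 and 9.18 CPM in JR5558 at 4 weeks, against 6.91, 7.92 and 6.40 CPM in C57BL/6J, with no overlap and a log2 fold change of 0.55 ± 0.15 (adjusted p = 0.0366, edgeR). At 8 weeks it was 0.06 ± 0.15 (adjusted p = 0.883, edgeR). Its call at 4 weeks held in 9 of 18 other settings of the analysis, with adjusted p from 0.019 to 0.152, and among them with 5 of 12 libraries left out in turn. Of the 4-week libraries, it was lost without replicates 1 or 3 of C57BL/6J and without replicates 1 or 2 of JR5558 (adjusted p from 0.07 to 0.138). Tcirg1 is also 1 of 6 listed markers of osteoclast-type macrophages, of which the other 5 summed to 1.15 to 2.01 CPM in JR5558 and 0.847 to 1.59 CPM in C57BL/6J at 4 weeks; the part of those cells in its value was not tested.

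Meak7, a TLDc-domain protein of lysosomes linked to mTOR signalling in human cells, had 71.5, 71.2 and 72.5 CPM in JR5558 at 4 weeks, against 66.9, 63.2 and 51.5 CPM in C57BL/6J. The older mice had 53.1, 52.3 and 51.2 CPM in JR5558, against 69.0, 65.4 and 63.0 CPM in C57BL/6J. JR5558 was above C57BL/6J in every library at 4 weeks and below it at 8 weeks. The log2 fold change was 0.25 ± 0.090 at 4 weeks (adjusted p = 0.128) and -0.33 ± 0.090 at 8 weeks (adjusted p = 0.0371, edgeR). For 8 against 4 weeks in JR5558 it was -0.46 ± 0.090 (adjusted p = 0.0135, edgeR), and Tbc1d24 fell by 0.34 in the same comparison (adjusted p = 0.033, edgeR); age cannot be told apart from the Xist and Ddx3y pattern in either. The 8-week call of Meak7 was lost without any 1 of the 6 libraries of that age (adjusted p from 0.071 to 0.165). Its age call was lost without replicate 2 of JR5558 at 4 weeks (adjusted p = 0.0553) and without replicates 2 or 3 at 8 weeks (0.0634 and 0.0955). The age call of Tbc1d24 held with 5 of 12 libraries left out in turn and was lost with the other 7 (adjusted p up to 0.222). No other gene of the pump lists passed with age in JR5558, and none did in C57BL/6J.

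Genes that work beside the pump were counted against the same shares of all tested genes, 6.16% called at 4 weeks and 5.18% at 8 weeks. Of 34 lysosomal membrane proteins and hydrolases, 7 were higher and 0 lower in JR5558 at 4 weeks, and 5 were higher and 0 lower at 8 weeks. Ppt1, a lysosomal thioesterase, had log2 fold changes of 0.68 ± 0.074 and 0.67 ± 0.074 (adjusted p = 5.53e-06 and 7.07e-06, edgeR), and the protease genes Ctsl and Ctsd were called at both ages. Their median was 0.11 at either age, against -0.01 and -0.05 for the 10 members. The pigment epithelium, microglia and Müller glia markers given above ran higher in JR5558 too. Of the 12 pigment epithelium markers, 10 were called higher at 4 weeks and 3 at 8 weeks, with median log2 fold changes of 1.32 and 1.07. Of the 12 microglia and macrophage markers, 4 and 5 were called higher, with medians of 0.59 and 0.71. Of the 8 Müller glia markers, all had positive log2 fold changes at both ages, with 5 called higher at 4 weeks and 2 at 8 weeks. The part of these cell types in the lysosomal counts was not tested. Of 17 synaptic vesicle genes, 0 were called at 4 weeks and 1 at 8 weeks, Stx3, a ribbon synapse syntaxin, with -0.24 ± 0.067 (adjusted p = 0.0425, edgeR). Of 12 genes of the Ragulator, Rag and mTORC1 machinery that docks on the pump, 0 were called at 4 weeks. At 8 weeks Lamtor5 was higher (0.30 ± 0.085, adjusted p = 0.0487) and the arginine sensor Slc38a9 lower (-0.40 ± 0.088, adjusted p = 0.00991, edgeR).

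Promoters, from 250 bases before to 50 after the annotated start, were available from RefSeq (GRCm38.p6) for 7 of the 10 genes. The letters CACGTG, the E-box core at the centre of the CLEAR element that the lysosomal regulator TFEB is known to bind, were searched; the motif reads the same on both strands. They occurred in the promoters of 3 of the 7 genes (Atp6v0b, Atp6v0d1 and Atp6v1a), or 42.9%, against 8.09% of all 27025 genes with a promoter in the set. The longer TCACGTGA, which contains it, occurred in 2 of the 7 (28.6%), Atp6v0d1 and Atp6v1a, against 1.12% of all genes. These matches describe letters in the windows and not binding, and none of the 3 genes passed in any comparison. Of the 3 tested TFEB family genes among 4 listed, 0 were called in either strain comparison.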

How the data were processed

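Paired-end reads of poly-A RNA came from 12 whole retinas. The tools named are fastp, featureCounts 1.5.0-p3 and the aligner HISAT2 2.0.5, and the genome build mm10, per the submitters' processing notes. The deposited table, per the file headers, holds raw counts per gene and FPKM by the authors, and the authors' own log2 fold changes and p-values, which were not used. Gene positions in the table are not those of GRCm38 in GENCODE M21, and their build is not settled; sequences and coordinates were read from GENCODE M21.

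Counts were analysed in R 4.3.3 with edgeR 4.0.16 (limma 3.58.1, DESeq2 1.42.0 as an alternative): filterByExpr by group (minimum count 10, total 15), TMM scaling, 1 quasi-likelihood fit over 12 libraries with 4 group means, 5 contrasts, 2-sided tests, Benjamini-Hochberg adjustment over 18334 genes and a threshold of 0.05. CPM are counts per 1000000 counts after TMM. Intervals are 95% confidence intervals. The script was tested on simulated counts, with changes planted in JR5558 at 4 weeks in genes drawn from all tested genes. It recovered 2 of 50 changes of 1.2-fold, 24 of 50 of 1.5-fold, 32 of 50 of 2-fold and 42 of 50 of 4-fold. Small differences can therefore go uncalled. The rates cover tested genes of all levels and were not worked out for the 10 members, which had 1805 to 13771 counts per library.

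The members and gene lists were chosen with earlier results of these data known, so p-values describe them and a count of members is read beside the share of all tested genes. All 10 members were named, and other genes of the pump lists could be; of each other list, up to 3 called genes were named in the order of the adjusted p, and Atp6v0c-ps2 and the neighbourhood of Atp6v0c were chosen after their values were seen. Alternatives were DESeq2, RLE scaling, no filter, a filter of 1 CPM in at least 3 libraries, a fit restricted to the groups in the contrast, a block for the replicate number, each library left out once, and, chosen after seeing the data, Atp6v0c and Atp6v0c-ps2 summed.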

Additional observations from a re-analysis of the deposited data

Results flagged for a closer look

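Atp6v0e2 was picked out because the strain difference ran in opposite directions at the 2 ages in every library, with all JR5558 libraries above C57BL/6J at 4 weeks and below at 8 weeks; the difference of the strain effect was -0.27 on the log2 scale and did not pass (adjusted p = 0.51, edgeR), nor did it in any of 17 other settings (adjusted p from 0.308 to 0.887).

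Meak7 was picked out for the same reason, with a difference of -0.58 ± 0.13 that did not pass (adjusted p = 0.148, edgeR). It passed with no filter on low counts (adjusted p = 0.03) and with DESeq2 (0.00682), within a range of 0.00682 to 0.504 over 17 other settings. The libraries of JR5558 at 4 weeks are those with Y-linked counts and almost no Xist, so for both genes the age at which JR5558 was higher cannot be told apart from that pattern.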

How the results depend on the processing

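Atp6v0c stayed past the threshold in JR5558 in all 18 other settings that kept the gene on its own, with log2 fold changes of -1.39 to -1.23 at 4 weeks and -1.45 to -1.38 at 8 weeks. Summing Atp6v0c and its pseudogene, chosen after seeing the data, turned them to 0.16 and 0.011 and left 0 members called at each age. Leaving out each library in turn gave 1 to 2 members called for the strains at 4 weeks (Atp6v0a1 added without replicate 3 of C57BL/6J at 4 weeks), 1 at 8 weeks, 0 to 1 with age in JR5558 (Atp6v0b, without the same library) and 0 with age in C57BL/6J. No filter on low counts gave 1 member with age in JR5558 and 1 in C57BL/6J, and DESeq2 gave 1 in C57BL/6J; the cause was not tested.

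Counts over all genes moved more. A fit of only the groups compared called 558 genes at 4 weeks, 2183 at 8 weeks, 544 with age in JR5558 and 22 in C57BL/6J; it cannot give the difference of the strain effect. With no filter, 854 and 445 genes were called with age in JR5558 and in C57BL/6J and 96 for the difference of the strain effect, and with DESeq2 746, 407 and 63. Leaving out each library gave 814 to 1162 and 538 to 1373 for the strains at 4 and 8 weeks, 63 to 987 and 16 to 126 with age in JR5558 and C57BL/6J, and 6 to 38 for the difference. The call of Meak7 at 8 weeks held in 12 of 18 alternatives (adjusted p from 0.00242 to 0.165) and with age in JR5558 in 15 (0.000206 to 0.0955). For Tbc1d24 the call held in 17 of 18 alternatives at 4 weeks (adjusted p from 0.000249 to 0.0604), in 18 at 8 weeks and in 10 with age in JR5558 (0.00285 to 0.222).

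Libraries with the same replicate number had correlated deviations of -0.184 to 0.101 over 18 pairs, against -0.122 to 0.204 over 36 pairs with different numbers. No pairing by number was detected, which does not show that there was none. With the replicate number as a block, 50 of 50 member results kept their call. P-values rest on 3 mice per group.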
